A study of Rhododendron with 15 samples.

Results

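The genes described here encode DnaJ proteins, also called J-proteins or HSP40 co-chaperones, in leaves of Rhododendron 'xiaotaohong'. They were chosen by annotation and not by level: every gene whose deposited description contained DnaJ or HSP40 and not chaperonin was taken. The rule found 59 of the 29985 genes in the table. Their descriptions named 24 as subfamily B, 12 as subfamily C, 5 as dnaJ 11-like, 10 by another number or letter code such as dnaJ 8 or dnaJ 20, and 8 only as a DnaJ protein. The descriptions cite matching proteins of other plants, and subfamily B and C are class names first used for animal proteins. None of the 59 was described by a cysteine-rich or zinc-finger domain alone.

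Leaf RNA selected by its polyA tail was sequenced in 15 libraries, 3 for each of 5 groups. These were plants at 25 °C without melatonin, which the design names as the control, heated plants without melatonin at 35 °C or 40 °C, and heated plants to which melatonin had been applied, again at 35 °C or 40 °C. All groups were of the same variety. Melatonin is an indole compound that plants and animals make from tryptophan. Nothing in the labels states the dose, the length of the heat, the plants' age or whether libraries came from separate plants, so each p-value measures the spread between these libraries, which may be technical.

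A J-protein carries a J-domain that makes an HSP70 chaperone split its ATP and clamp onto an unfolded protein. A nucleotide exchange factor such as GrpE or a BAG protein then resets the HSP70, and the cycle repeats. J-proteins thereby choose where HSP70 works and on what. In Arabidopsis the small proteins J8, J11 and J20 are found in plastids, and J20 is known for bringing inactive enzyme of the plastid isoprenoid pathway to HSP70. Class A J-proteins resemble bacterial DnaJ, and in plants the cytosolic ones bind unfolded clients with HSP70. J-proteins of the endoplasmic reticulum serve the HSP70 there, which is called BiP. In leaves, heat shock transcription factors are known to raise many of these chaperones.

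The libraries held 54300447 to 68267949 counts. Markers of leaf mesophyll, 25 genes for chlorophyll-binding proteins, photosystem parts and Rubisco proteins, summed to 31574 to 32925 FPKM at 25 °C, where FPKM is mapped fragments scaled to transcript length and library size. In plain heat they summed to 32960 to 34559 FPKM for 35 °C and 6577 to 6691 for 40 °C. With melatonin the sums were 29127 to 29513 for 35 °C and 23459 to 23662 for 40 °C. None of the 25 was at 0 in all libraries. Markers of guard cells and epidermis, 21 genes, summed to 473 to 502 FPKM at 25 °C, 353 to 369 at 35 °C and 85.8 to 94.4 at 40 °C. With melatonin they summed to 522 to 532 FPKM for 35 °C and 86.2 to 90.8 for 40 °C. Vascular markers, 24 genes, summed to 382 to 396 FPKM at 25 °C, 538 to 554 at 35 °C and 167 to 176 at 40 °C. With melatonin these stood at 235 to 240 FPKM for 35 °C and 165 to 169 for 40 °C. Root markers, 6 genes, lay between 57.2 and 78.5 FPKM in all libraries, and flower and pollen markers, 33 genes, between 98.3 and 269, with their highest values at 40 °C. The share of counts in mitochondrially encoded genes was 0.0239% at 25 °C, 0.214% at 40 °C and 0.0619% at 40 °C with melatonin, as group means. Marker sums thus moved with heat, with melatonin at 35 °C and, for some lists such as mesophyll, with melatonin at 40 °C. The guard cell and the vascular sums at 40 °C overlapped between the groups with and without melatonin. These shifts stand beside every result below, and their part in it was not tested. In bulk leaf, fewer cells of a type and less RNA per cell cannot be told apart.

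Of the 59 DnaJ genes, 56 passed the count filter of the test and 3 did not, the latter with no group mean above 0.0762 FPKM. A mean of at least 5 FPKM in some group was reached by 43 genes, and 10 genes reached 100 FPKM. Another 10 stayed under 1 FPKM in every group. The genes were spread over 13 numbered chromosomes and 4 unplaced contigs, with 8 on chromosome 12 and 7 on chromosome 8. Loci named MSTRG are assembled loci and loci named Rhsim are those of the reference annotation. On 4 loci (MSTRG.11013, MSTRG.13601, MSTRG.14670 and MSTRG.6043) counts were summed over 2 annotated genes, and these are called merged. Gene ontology terms named the chloroplast or plastid for 10 members. These were the 5 dnaJ 11-like genes, 2 dnaJ 8 genes, 1 dnaJ 20-like gene, the subfamily B gene MSTRG.2333 and the subfamily C gene MSTRG.23066. The KEGG orthology numbers of MSTRG.2333 and of MSTRG.11701, a dnaJ 11-like gene, are those of other enzymes and go against their descriptions. Whether their plastid terms come from those enzymes was not tested.

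Added over the 59 genes, the DnaJ level was 1886 ± 17 FPKM at 25 °C (SD, n = 3, as throughout), 2741 ± 222 at 35 °C and 4948 ± 165 at 40 °C. With melatonin it was 2451 ± 39.7 FPKM at 35 °C and 2730 ± 12.5 at 40 °C. The lowest 40 °C library stood at 4772 FPKM and the highest library of any other group at 2997, so the 40 °C group overlapped with none. As a share of all counts, the genes took 0.370% at 25 °C, 0.419% at 35 °C, 0.715% at 40 °C, 0.384% at 35 °C with melatonin and 0.468% at 40 °C with melatonin. The dnaJ 11-like genes summed to 343 ± 23.9 FPKM at 25 °C, 1101 ± 250 at 35 °C, 1666 ± 136 at 40 °C and 638 ± 11.5 at 40 °C with melatonin. Subfamily B summed to 398 ± 8.35 FPKM at 25 °C, 346 ± 1.52 at 35 °C and 367 ± 15.1 at 40 °C, and to 464 ± 3.81 at 40 °C with melatonin. It was the one of the 5 kinds whose sum was higher at 40 °C with melatonin than without. In that comparison the median log2 fold change of its 22 tested genes was -0.23. Within the sum, MSTRG.19199 went from 11.5 to 73.0 FPKM and the merged locus MSTRG.11013 from 43.0 to 76.8. All sums given here are descriptions and were not tested.

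**Figure D1:**
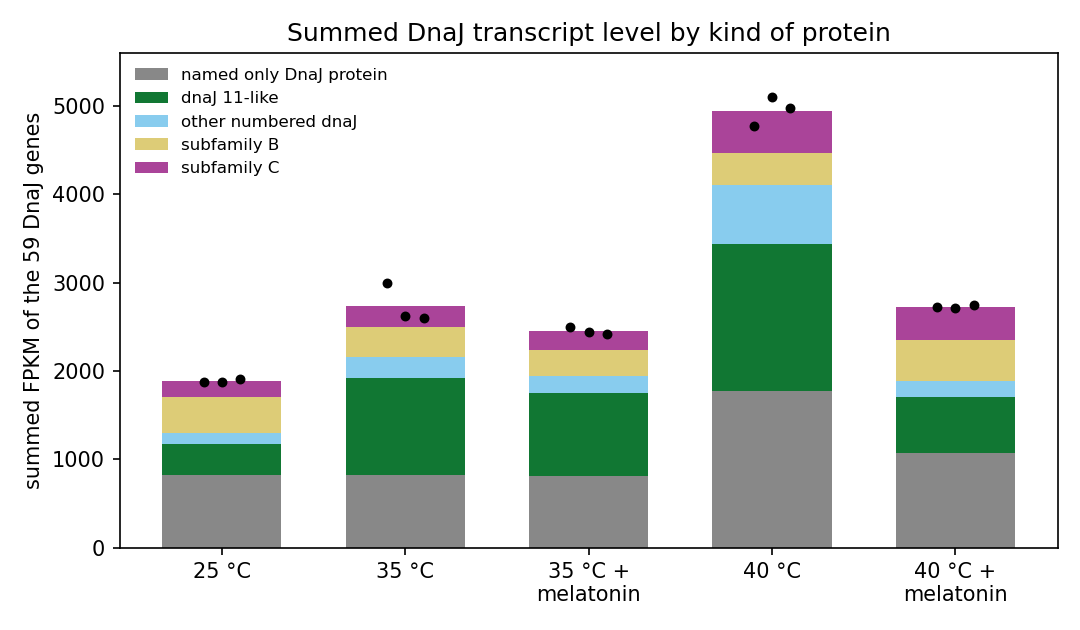
Summed FPKM of the 59 DnaJ genes in each group, as group means stacked by kind of protein, with the total of each library as a black point. The 40 °C libraries lie between 4772 and 5100 FPKM, and 1 of the 35 °C libraries stands above the other 2 at 2997.

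At 35 °C, more DnaJ genes were higher than lower. Against 25 °C, 23 of the 56 tested genes rose (41.1%) and 11 fell (19.6%), where a change means an adjusted p under 0.05 in edgeR's quasi-likelihood test. Of all 26183 genes tested, 25.5% were called higher and 23.6% lower. A change of at least 2-fold was reached by 9 of the genes that rose and 2 that fell, beside 2283 and 2090 of all 26183. The median log2 fold change of the members was 0.08, beside 0.01 for all genes. The largest rises among genes of at least 5 FPKM were in the dnaJ 11-like genes MSTRG.19915 and MSTRG.10129.

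At 40 °C, 33 DnaJ genes rose against 25 °C (58.9%) and 10 fell (17.9%), against a background of 37.3% of all genes called higher and 38.6% lower. At least 2-fold changes were found in 23 higher and 6 lower members, beside 6397 and 6776 of all 26183 genes tested. The median log2 fold change was 0.48 for the members and -0.01 for all genes. Against 35 °C, 29 members rose (51.8%) and 9 fell (16.1%), where 32.8% of all genes were called higher and 36.5% lower. The 40 °C libraries enter both comparisons. Among genes of at least 5 FPKM, the largest rises from 25 °C were in plastid-annotated dnaJ 11, dnaJ 8 and dnaJ 20 genes and in subfamily C, and the largest falls in 1 dnaJ 11-like gene and 4 subfamily B genes.

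Melatonin at 35 °C lowered more DnaJ genes than it raised. It raised 2 of the 56 (3.57%) and lowered 17 (30.4%), where 9.7% of all genes were called higher and 12.3% lower. Without the second 35 °C library the counts were 1 and 11, without any 1 of the 3 libraries with melatonin at 35 °C the higher count was 1, and limma on log2(FPKM + 1) gave 6 and 10. Only 2 members fell by at least 2-fold, the dnaJ 11-like MSTRG.19915 and the subfamily B gene MSTRG.15866, and none rose that far. Of all 26183 genes tested, 1028 rose and 176 fell that far. The median log2 fold change was -0.12 for the members and 0.00 for all genes.

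Melatonin at 40 °C raised 14 members (25.0%) and lowered 25 (44.6%), where 32.9% of all genes were called higher and 26.2% lower. At least 2-fold changes were found in 6 higher and 11 lower members, beside 4247 and 2894 of all 26183 genes tested. The median log2 fold change was -0.29 for the members and 0.10 for all genes. Even with melatonin, the 40 °C leaves differed from 25 °C leaves: 26 members were higher (46.4%) and 13 lower (23.2%), beside 34.3% and 33.3% of all genes. The melatonin effect itself differed between the temperatures for 31 members. It was higher at 40 °C than at 35 °C in 14 (25.0%) and lower in 17 (30.4%), where 27.2% and 21.3% of all genes were called in those directions.

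**Figure D2:**
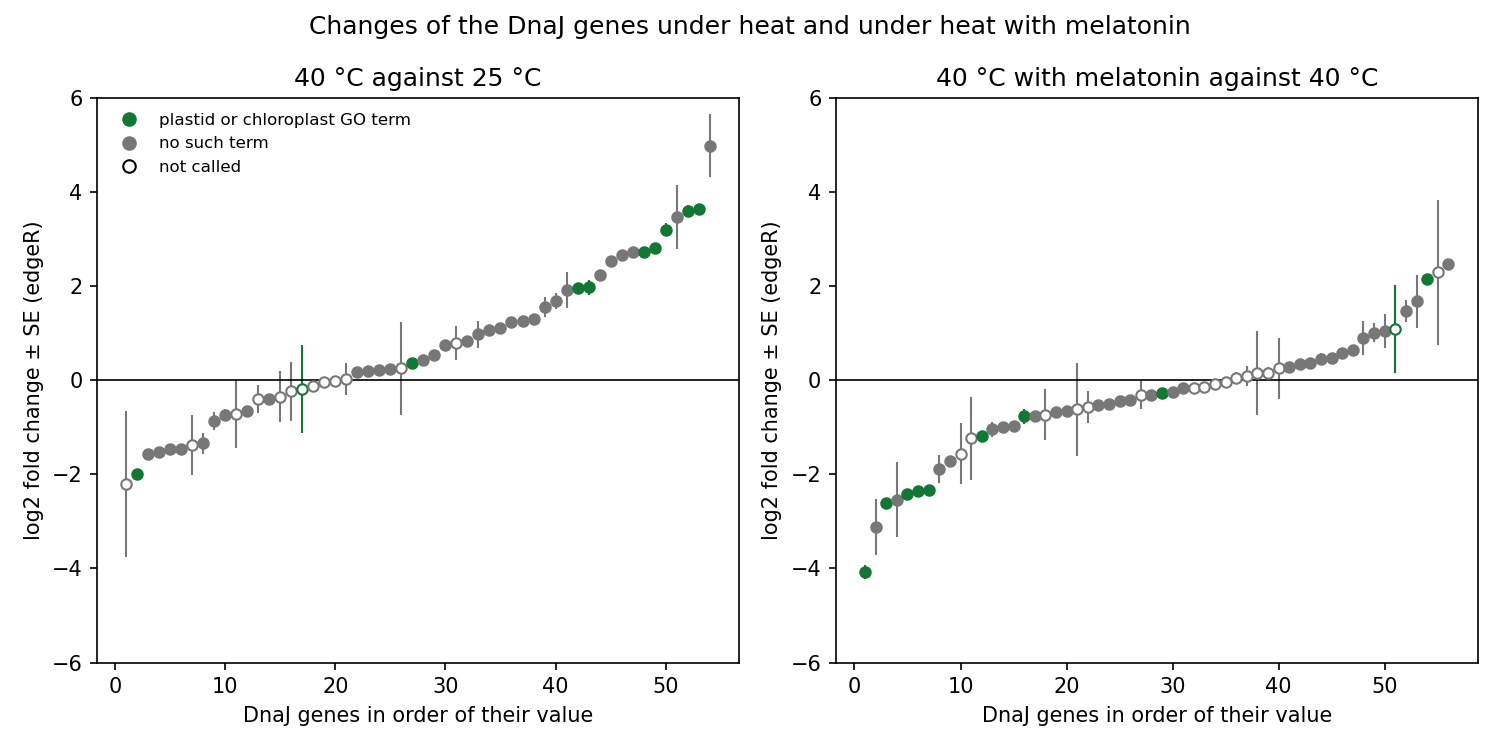
The log2 fold change of each tested DnaJ gene with its standard error, in order of size, for 40 °C against 25 °C (left, 54 genes, leaving out 2 with 0 counts in every 25 °C library) and for 40 °C with melatonin against 40 °C (right, 56 genes). Genes with a chloroplast or plastid term are green, and open points were not called. Both panels use the 40 °C libraries.

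Of the 10 plastid-annotated genes, 8 rose and 1 fell at 40 °C against 25 °C, with a median log2 fold change of 2.36. They gave 7 of the 23 rises and 1 of the 6 falls of at least 2-fold in that comparison, and the other members gave the rest. The other 46 tested members had 25 that rose (54.3%) and 9 that fell (19.6%), with a median of 0.25. Of all genes tested, 37.3% were called higher and 38.6% lower at 40 °C against 25 °C. At 35 °C, 7 of the 10 rose and none fell, with a median of 0.98, beside 25.5% and 23.6% of all genes. With melatonin at 40 °C, 1 of the 10 was higher and 8 were lower than at 40 °C without it, with a median of -1.75. Of the other 46, 13 were higher (28.3%) and 17 lower (37.0%) in that comparison, with a median of -0.16. For all genes the shares were 32.9% and 26.2%, with a median of 0.10, so the other 46 also had a larger share called lower. The summed level of the 10 genes was 445 ± 26.8 FPKM at 25 °C, 1299 ± 239 at 35 °C, 1100 ± 13.3 at 35 °C with melatonin, 2313 ± 98.3 at 40 °C and 788 ± 13.5 at 40 °C with melatonin. The difference between these 2 groups of genes was not tested. The summed mesophyll markers, themselves for plastid proteins, were lowest at 40 °C, where the plastid-annotated DnaJ sum was highest, and their part in it was not tested.

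The most abundant DnaJ transcript in every group was MSTRG.16401 on chromosome 9 (26970325 to 26974962). Its KEGG orthology number, K09503, is that of the class A protein DNAJA2, which in animals is a cytosolic partner of HSP70 in refolding. It stood at 728, 764 and 735 FPKM in the 25 °C libraries, 727, 750.3 and 762 at 35 °C, and 784, 706 and 706 at 35 °C with melatonin. These 3 groups overlapped. At 40 °C it was at 1607, 1696 and 1676 FPKM, and at 40 °C with melatonin at 952, 963 and 963, both clear of the other groups and of each other. The log2 fold change at 40 °C against 25 °C was 1.25 ± 0.04 (SE; adjusted p 3.8e-13, edgeR). The change at 35 °C was -0.05 ± 0.04 (adjusted p 0.265) and did not pass the test. Melatonin lowered it at 40 °C by a log2 change of -0.98 ± 0.04 (adjusted p 1.84e-11) and at 35 °C by -0.13 ± 0.04 (adjusted p 0.0193). The melatonin effects differed by -0.85 ± 0.05 (adjusted p 7.67e-09). It made up 39.4% of the summed DnaJ level at 25 °C and 33.5% at 40 °C.

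The other genes with the same orthology number went the other way at 40 °C. MSTRG.24340 was at 5.61 ± 0.91 FPKM at 25 °C and 2.88 ± 0.33 at 40 °C, a log2 change of -0.87 ± 0.20 (adjusted p 0.00107). MSTRG.1110, described as dnaJ A6, was at 4.23 ± 0.50 FPKM at 25 °C and 1.57 ± 0.57 at 40 °C, a log2 change of -1.34 ± 0.23 (adjusted p 9.03e-05). With melatonin at 40 °C they were at 6.67 ± 0.41 and 4.97 ± 0.82 FPKM, higher than without it by 1.01 ± 0.20 (adjusted p 0.000449) and 1.47 ± 0.23 (adjusted p 6.05e-05) on the log2 scale. Both stayed far below MSTRG.16401 in every group.

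The dnaJ 11-like genes were short loci, and 3 of them were among the 4 most abundant members at 40 °C. MSTRG.18450 (chromosome 10, 33926554 to 33927039) was at 178, 146 and 190.1 FPKM at 25 °C, 479.6, 307 and 297 at 35 °C, and 536, 688 and 683 at 40 °C. With melatonin it was at 412, 421 and 414 FPKM at 35 °C and 427, 423 and 429 at 40 °C. The 25 °C libraries were the lowest and the 40 °C libraries the highest, and 1 of the 35 °C libraries lay above all 6 melatonin libraries. It rose at 35 °C by 1.01 ± 0.16 on the log2 scale (adjusted p 8.94e-05) and at 40 °C by 1.98 ± 0.16 (adjusted p 3.37e-08). Melatonin changed it by -0.77 ± 0.16 at 40 °C (adjusted p 0.000651) and by 0.10 ± 0.16 at 35 °C (adjusted p 0.741).

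MSTRG.10129 (chromosome 6, 2505237 to 2506721) showed the largest fall with melatonin among DnaJ genes of at least 5 FPKM. It was at 73.2, 66.8 and 76.7 FPKM at 25 °C, 547, 378 and 363 at 35 °C, and 569, 688 and 615 at 40 °C. With melatonin it was at 302, 328 and 307 FPKM at 35 °C, but at 42.0, 39.6 and 44.9 at 40 °C, below every 25 °C library. The rise at 40 °C was 3.20 ± 0.14 (log2, adjusted p 2.06e-11). The melatonin change at 40 °C was -4.08 ± 0.14 (adjusted p 7.5e-12), and at 35 °C it was -0.57 ± 0.13 (adjusted p 0.0047). The melatonin effects differed by -3.51 ± 0.19 (adjusted p 1.27e-09). Set against 25 °C, the 40 °C leaves with melatonin were lower by -0.88 ± 0.13 (adjusted p 3.1e-05).

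MSTRG.19915 (chromosome 11, 32645605 to 32646111) was at 34.7, 34.1 and 30.8 FPKM at 25 °C, 284, 223 and 209.7 at 35 °C, and 394, 385 and 391 at 40 °C. With melatonin it was at 102, 104 and 102 FPKM at 35 °C and 91.3, 87.3 and 87.7 at 40 °C. No pair of the 5 groups overlapped, and both melatonin groups lay between the 25 °C and the heated groups. It rose by 2.78 ± 0.09 at 35 °C (log2, adjusted p 1.19e-11) and by 3.64 ± 0.10 at 40 °C (adjusted p 8.73e-14). Melatonin lowered it by -1.32 ± 0.09 at 35 °C (adjusted p 1.06e-07) and by -2.33 ± 0.09 at 40 °C (adjusted p 2.13e-11).

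The first 35 °C library was the highest of its group for all 3 of these genes. Without it the rise at 35 °C was 0.75 ± 0.11 for MSTRG.18450 (log2, adjusted p 7.44e-05), 2.29 ± 0.08 for MSTRG.10129 (adjusted p 1.41e-10) and 2.64 ± 0.05 for MSTRG.19915 (adjusted p 4e-13), all from edgeR. Melatonin at 35 °C then raised MSTRG.18450 by 0.38 ± 0.11 (adjusted p 0.0267), a call that the full set of libraries did not give. The corresponding melatonin change of MSTRG.10129 became -0.32 ± 0.08 (adjusted p 0.0131).

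Another dnaJ 11-like gene had the opposite profile. MSTRG.11701 (chromosome 6, 35357126 to 35357623) was at 65.9, 67.6 and 62.9 FPKM at 25 °C, 78.3, 66.5 and 69.8 at 35 °C, and only 14.6, 18.4 and 13.7 at 40 °C. With melatonin it was at 117, 109 and 119 FPKM at 35 °C and 82.6, 73.2 and 81.5 at 40 °C. The 40 °C libraries were far below all others, and the 35 °C melatonin libraries were above all others. The change at 40 °C was -1.98 ± 0.10 (log2, adjusted p 2.08e-10), and melatonin raised it by 2.15 ± 0.10 at 40 °C (adjusted p 2.47e-10) and by 0.58 ± 0.10 at 35 °C (adjusted p 0.000595). Its orthology number, K01956, belongs to a subunit of carbamoyl-phosphate synthase and goes against its description, so its identity as a J-protein rests on the description alone. The remaining one, Rhsim04G0009300, stayed between 0.51 and 1.45 FPKM in its group means.

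**Figure D3:**
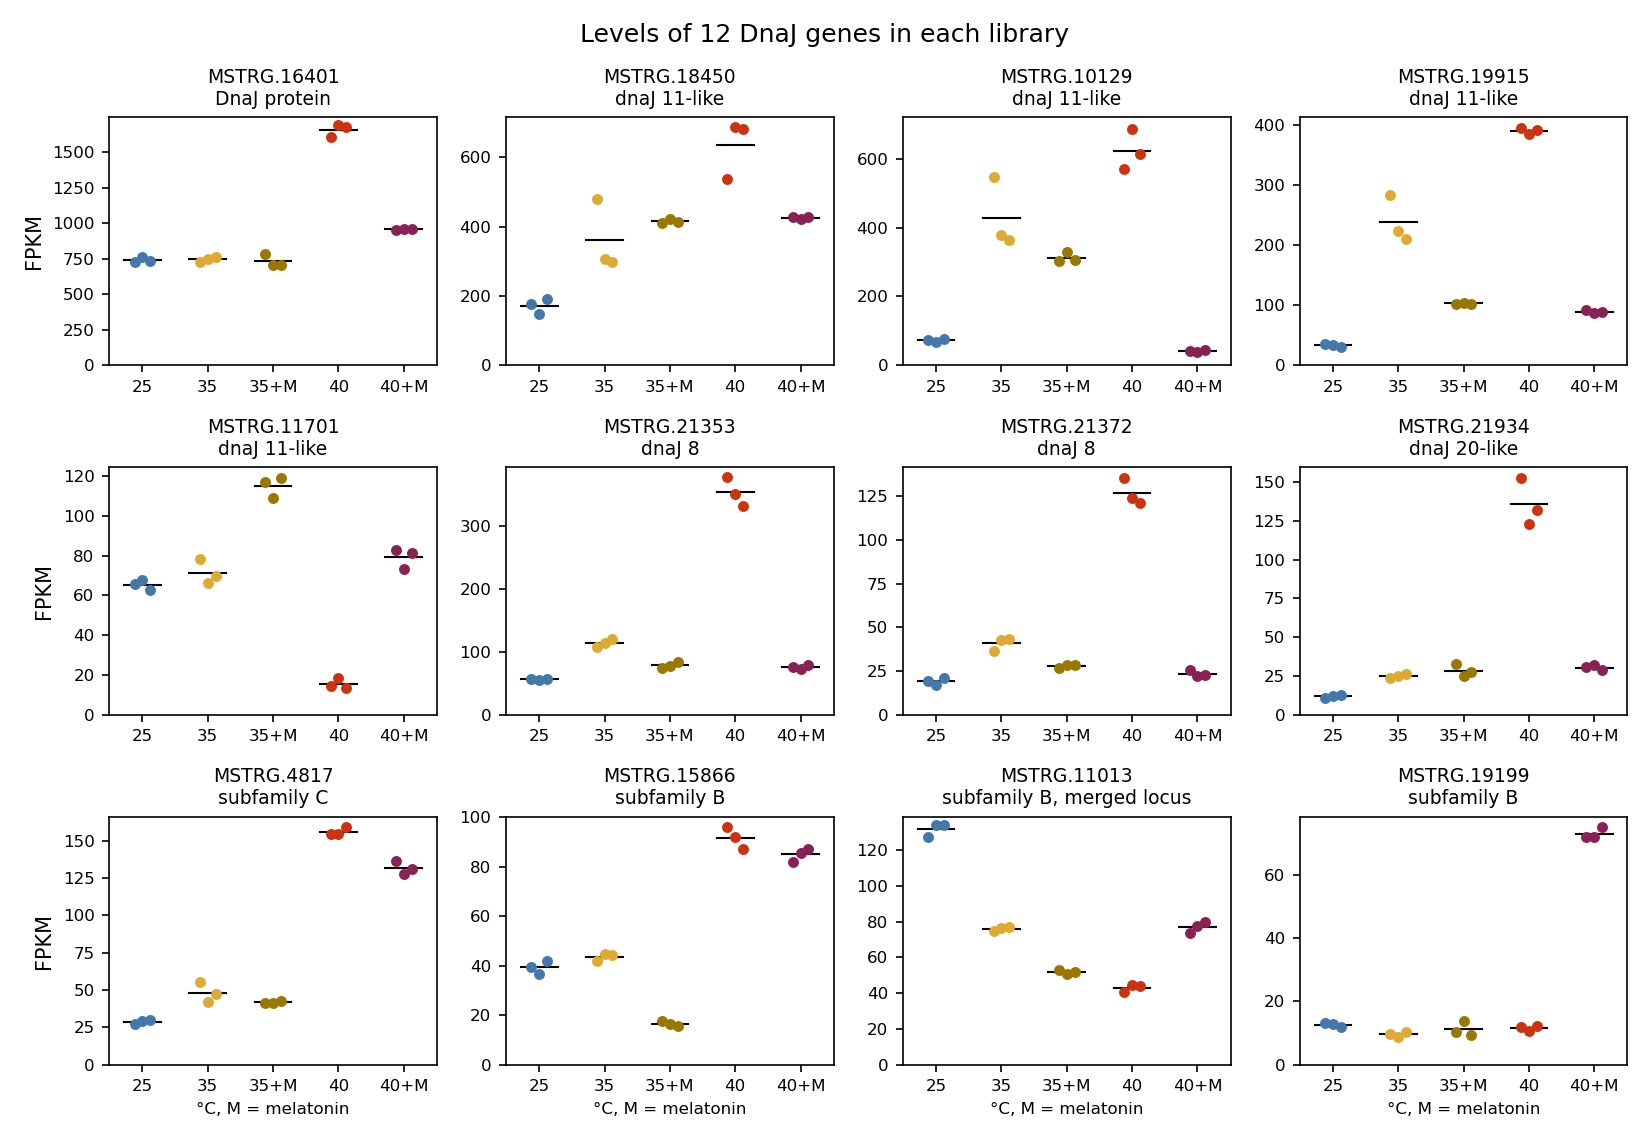
FPKM of 12 DnaJ genes in each of the 15 libraries (points), with group means as bars, on axes that start at 0 and differ between panels. The x axis gives the temperature in °C, with M for melatonin. MSTRG.10129 falls to about 42.2 FPKM at 40 °C with melatonin, while MSTRG.19199 is at 73.0 there and between 9.56 and 12.6 in the other group means.

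A pair of dnaJ 8 genes, described as chloroplastic, behaved alike on chromosome 12, where 257248 bases separate them. MSTRG.21353 (27388666 to 27391430) was at 56.9, 55.8 and 56.9 FPKM at 25 °C, 107, 114 and 120.5 at 35 °C, and 376, 350.1 and 331 at 40 °C. With melatonin it was at 74.9, 77.8 and 83.1 FPKM at 35 °C and 75.2, 73.2 and 79.0 at 40 °C. The 2 melatonin groups overlapped each other and lay above 25 °C and below both heated groups. The rise was 0.95 ± 0.06 at 35 °C (log2, adjusted p 5.33e-09) and 2.73 ± 0.06 at 40 °C (adjusted p 1e-14). Melatonin lowered it by -0.64 ± 0.06 at 35 °C (adjusted p 1.43e-06) and by -2.41 ± 0.06 at 40 °C (adjusted p 1.47e-13), and these effects differed by -1.77 ± 0.08 (adjusted p 2.32e-10).

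MSTRG.21372 (27128635 to 27131418) was at 19.3 ± 2.07 FPKM at 25 °C, 40.8 ± 3.84 at 35 °C and 127 ± 7.72 at 40 °C, and with melatonin at 28 ± 0.85 at 35 °C and 23.6 ± 1.9 at 40 °C. It rose by 2.80 ± 0.09 at 40 °C (log2, adjusted p 8.84e-13), and melatonin lowered it by -2.62 ± 0.09 there (adjusted p 6.38e-12). At 40 °C with melatonin its difference from 25 °C was 0.19 ± 0.09 (adjusted p 0.0737) and did not pass the test. The ratio of the FPKM values of the pair was between 2.67 and 3.45 in all 15 libraries. If the genes are near copies, the counting may have split shared reads between them, so their separate levels are uncertain.

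The dnaJ 20-like gene MSTRG.21934 (chromosome 13, 4925960 to 4926992) was at 10.6, 12.1 and 13 FPKM at 25 °C, 23.9, 25.0 and 26.5 at 35 °C, and 152, 123 and 132 at 40 °C. With melatonin it was at 33.0, 24.8 and 27.9 FPKM at 35 °C and 30.7, 31.9 and 28.7 at 40 °C. The 40 °C libraries stood alone, and the 35 °C groups with and without melatonin overlapped. It rose by 1.02 ± 0.11 at 35 °C (log2, adjusted p 2.56e-06) and by 3.6 ± 0.12 at 40 °C (adjusted p 8.57e-13). Melatonin changed it by -2.35 ± 0.11 at 40 °C (adjusted p 1.79e-10) and by 0.08 ± 0.11 at 35 °C (adjusted p 0.683), and the effects differed by -2.43 ± 0.15 (adjusted p 8.45e-09).

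Of the 12 subfamily C genes, 9 rose (75.0%) and none fell at 40 °C against 25 °C, beside 37.3% and 38.6% of all genes. At 35 °C, 7 rose (58.3%) and 1 fell, beside 25.5% and 23.6% of all genes. Melatonin at 40 °C raised none and lowered 7 (58.3%), beside 32.9% and 26.2% of all genes. Only 1 of the 7 fell by at least 2-fold, beside 2894 of all 26183 genes tested. The 7 include the merged loci MSTRG.14670 and MSTRG.6043, with small log2 changes of -0.16 and -0.25. The 3 subfamily C genes with the largest rises above 5 FPKM differed in how they stood with melatonin. MSTRG.4817 (chromosome 3, 13609937 to 13613005) was at 27.1, 29.1 and 29.6 FPKM at 25 °C, 55.2, 41.8 and 47.5 at 35 °C, 154, 155 and 159 at 40 °C, and 136, 128 and 131 at 40 °C with melatonin. MSTRG.241 (chromosome 1, 3510038 to 3515077) was at 16.8, 16.7 and 15.4 FPKM at 25 °C, 25.1, 25.9 and 23.9 at 35 °C, 101.2, 99.5 and 91.9 at 40 °C, and 34.0, 35.2 and 32.7 at 40 °C with melatonin. MSTRG.15293 (chromosome 8, 33498825 to 33502000) was at 8.51, 9.58 and 8.65 FPKM at 25 °C, 20.6, 23.2 and 24.7 at 35 °C, 53.0, 56.9 and 57.1 at 40 °C, and 60.1, 61.9 and 62.9 at 40 °C with melatonin. In each, 40 °C lay above 35 °C and 35 °C above 25 °C without overlap, but with melatonin at 40 °C the first stayed near its heated level, the second stood much lower and the third was not lower.

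The tests put sizes on that difference. At 40 °C the rises were 2.54 ± 0.08 for MSTRG.4817, 2.67 ± 0.09 for MSTRG.241 and 2.73 ± 0.07 for MSTRG.15293 on the log2 scale (edgeR, adjusted p 6.69e-13, 1.42e-12 and 8.29e-14). Melatonin at 40 °C changed them by -0.44 ± 0.08 (adjusted p 0.000177), -1.71 ± 0.09 (adjusted p 4.55e-10) and -0.04 ± 0.07 (adjusted p 0.592). At 35 °C melatonin lowered all 3, by -0.30 ± 0.08, -0.31 ± 0.09 and -0.69 ± 0.07 (adjusted p 0.0103, 0.0169 and 4.06e-06). The melatonin effects at the 2 temperatures differed by -1.40 ± 0.12 for MSTRG.241 (adjusted p 2.99e-07) and by 0.65 ± 0.10 for MSTRG.15293 (adjusted p 5.34e-05), and the difference of -0.13 ± 0.11 for MSTRG.4817 did not pass (adjusted p 0.346). Among lower members, MSTRG.6608, described as the DNAJC2 type that in yeast and animals works at the ribosome on new chains, was at 18 FPKM at 25 °C, 35.3 at 40 °C and 23.7 at 40 °C with melatonin. MSTRG.8129, described as subfamily C member 14, was at 17.8, 35.9 and 25.7 FPKM in the same groups. The merged locus of MSTRG.6043, which includes the GRV2 type of endosome protein, lay between 24.6 and 26.8 FPKM in all 5 group means.

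In subfamily B, 10 of the 22 tested genes rose (45.5%) and 6 fell (27.3%) at 40 °C against 25 °C, beside 37.3% and 38.6% of all genes. Melatonin at 40 °C raised 6 (27.3%) and lowered 7 (31.8%), near the 32.9% and 26.2% of all genes. At 35 °C it raised 1 and lowered 5 (22.7%), beside 9.7% and 12.3% of all genes. MSTRG.15866 (chromosome 9, 12097252 to 12099928) was at 39.6, 36.5 and 41.7 FPKM at 25 °C, 41.9, 44.6 and 44.1 at 35 °C, 96.0, 91.9 and 87.1 at 40 °C, 17.7, 16.2 and 15.7 at 35 °C with melatonin, and 81.8, 85.6 and 87.2 at 40 °C with melatonin. Melatonin at 35 °C thus left it below every other group, while at 40 °C the groups with and without melatonin overlapped. The melatonin change was -1.5 ± 0.06 at 35 °C (log2, adjusted p 1.37e-09) and -0.30 ± 0.06 at 40 °C (adjusted p 0.000607), and these differed by 1.20 ± 0.09 (adjusted p 4.31e-08). MSTRG.21573, described as subfamily B member 6, was at 9.49 ± 0.78 FPKM at 25 °C, 42.3 ± 3.30 at 40 °C and 58.8 ± 1.79 at 40 °C with melatonin, where melatonin raised it by 0.28 ± 0.07 (log2, adjusted p 0.00407). At 35 °C melatonin lowered it, from 19.8 ± 1.10 to 13 ± 0.87 FPKM, by -0.72 ± 0.07 (adjusted p 7.22e-06).

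MSTRG.19199 (chromosome 11, 20833160 to 20835800) was high in 1 group. It was at 13.2, 12.8 and 11.8 FPKM at 25 °C, 9.67, 8.78 and 10.2 at 35 °C, 12, 10.6 and 12.1 at 40 °C, and 10.5, 13.7 and 9.51 at 35 °C with melatonin. At 40 °C with melatonin it was at 71.9, 72.0 and 75.1 FPKM, and no library of another group was above 13.7. Melatonin raised it by 2.47 ± 0.12 at 40 °C (log2, adjusted p 1.65e-10), against 0.13 ± 0.11 at 35 °C (adjusted p 0.502), and the effects differed by 2.34 ± 0.16 (adjusted p 1.94e-08). Heat of 40 °C alone changed it by -0.04 ± 0.11 (adjusted p 0.751).

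The falling subfamily B genes were led by the merged locus MSTRG.11013 (chromosome 6, 23098356 to 23122099), the third most abundant member at 25 °C. It was at 128, 134 and 134 FPKM at 25 °C, 74.5, 76.4 and 76.7 at 35 °C, 40.5, 44.6 and 43.8 at 40 °C, 52.8, 50.9 and 51.6 at 35 °C with melatonin, and 73.5, 77.5 and 79.5 at 40 °C with melatonin. The 35 °C group and the 40 °C group with melatonin overlapped, and the remaining groups were apart. It fell by 0.86 ± 0.04 at 35 °C (log2, adjusted p 5.21e-10) and by 1.53 ± 0.04 at 40 °C (adjusted p 1.26e-13). Melatonin lowered it at 35 °C by -0.65 ± 0.04 (adjusted p 6.04e-08) and raised it at 40 °C by 0.65 ± 0.04 (adjusted p 4.99e-09). Its counts are summed over 2 annotated genes, of which the other has no informative description.

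Further genes of subfamily B fell at 40 °C. MSTRG.20931 was at 55.6 ± 1.38 FPKM at 25 °C, 19 ± 1.5 at 40 °C and 32.5 ± 1.16 at 40 °C with melatonin. MSTRG.8934 was at 32.8 ± 2.54, 10.5 ± 0.54 and 15.5 ± 1.76 FPKM, and MSTRG.16892 at 11.5 ± 0.71, 3.92 ± 0.35 and 6.14 ± 0.98 FPKM in the same order. The falls at 40 °C were between 1.46 and 1.56 on the log2 scale, and melatonin raised all 3 at 40 °C, by 0.59 ± 0.07 (adjusted p 2.27e-06), 0.37 ± 0.09 (adjusted p 0.0022) and 0.46 ± 0.11 (adjusted p 0.00293), in edgeR. They stayed below 25 °C with melatonin, the differences being -0.87 ± 0.07, -1.19 ± 0.09 and -1.0 ± 0.11 (adjusted p 1.98e-08, 1.88e-08 and 1.62e-06). MSTRG.9833, described as subfamily B member 4, was at 24.7 ± 2.99 FPKM at 25 °C, 14 ± 1.86 at 40 °C and 16.6 ± 1.49 at 40 °C with melatonin, and its melatonin change of 0.05 ± 0.11 did not pass the test (adjusted p 0.71).

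Other subfamily B genes rose from lower levels. MSTRG.2333 was at 5.88 ± 0.51 FPKM at 25 °C, 21.4 ± 1.20 at 40 °C and 10.8 ± 0.57 at 40 °C with melatonin, and its orthology number, K13832, belongs to a shikimate pathway enzyme, against its description. MSTRG.24738 was at 4.35 ± 0.86, 12.1 ± 2.64 and 14.7 ± 0.63 FPKM in the same groups. MSTRG.11053 was at 3.16 ± 0.71, 5.87 ± 1.26 and 1.81 ± 0.29 FPKM, lower with melatonin by -1.88 ± 0.30 on the log2 scale (adjusted p 8.06e-05). Singled out after its values were seen, MSTRG.10750 had 0 counts in the 25 °C and the 35 °C libraries and 130, 58 and 76 counts at 40 °C. Its 264 counts at 40 °C were at least 78.9-fold higher than the 25 °C group, set at a floor of 3 counts over the group, which covers counting error only. The level stayed low, at 0.99 ± 0.48 FPKM at 40 °C and no higher in any other group.

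Members tied to the endoplasmic reticulum by their orthology numbers moved in different directions. MSTRG.9533 carries K09523, that of DNAJC3, which in animals restrains a stress kinase and serves BiP. It was at 14.3, 14.1 and 12.7 FPKM at 25 °C, 9.41, 7.30 and 11 at 35 °C, 30.2, 32.0 and 28.9 at 40 °C, and 16.6, 18.7 and 17.9 at 40 °C with melatonin. It fell by 0.63 ± 0.11 at 35 °C (log2, adjusted p 0.000339) and rose by 1.24 ± 0.11 at 40 °C (adjusted p 1.36e-07), and melatonin lowered it by -0.97 ± 0.11 at 40 °C (adjusted p 3.64e-06). MSTRG.10553 carries K09517, that of DNAJB11, a soluble partner of BiP in animals. It was at 23.8, 21.2 and 23 FPKM at 25 °C, 15.6, 17.7 and 18.9 at 35 °C, 13.5, 13.5 and 13.8 at 40 °C, and 19.6, 21.7 and 18 at 40 °C with melatonin. It fell by 0.44 ± 0.09 at 35 °C (log2, adjusted p 0.000872) and by 0.65 ± 0.09 at 40 °C (adjusted p 1.22e-05), and melatonin raised it by 0.35 ± 0.09 at 40 °C (adjusted p 0.00392).

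The mitochondrial dnaJ 1 gene MSTRG.13262 was at 1.74 ± 0.65 FPKM at 25 °C, 2.89 ± 0.60 at 40 °C and 6.80 ± 1.79 at 40 °C with melatonin. Melatonin raised it by 1.04 ± 0.35 at 40 °C (log2, adjusted p 0.0203, edgeR). That call was lost when 1 of 4 libraries was left out, replicate 2 or 3 at 40 °C or replicate 1 or 3 at 40 °C with melatonin. Its rise against 25 °C at 40 °C without melatonin, 0.80 ± 0.36, did not pass (adjusted p 0.0579). A second gene of that name, MSTRG.13263, lies 735 bases away, and the FPKM ratio of the pair ranged from 1.10 to 6.61 over the libraries. MSTRG.13263 was at 0.55 ± 0.19 FPKM at 25 °C, 1.96 ± 0.44 at 40 °C and 4.18 ± 0.36 at 40 °C with melatonin. Against 25 °C it rose by 1.92 ± 0.39 at 40 °C and 0.99 ± 0.38 at 35 °C (log2, edgeR, adjusted p 0.00041 and 0.0459). Melatonin raised it at 40 °C by 0.90 ± 0.36 (adjusted p 0.0458).

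Of the 43 genes of at least 5 FPKM in some group, 16 fell outside the rule for named genes, MSTRG.6608, MSTRG.8129 and MSTRG.6043 among them. Their group means lay between 3.77 and 39.7 FPKM, and their log2 fold changes at 40 °C against 25 °C between -0.39 and 1.68. In that comparison 12 of the 16 rose and 1 fell, beside 37.3% and 38.6% of all genes. Melatonin at 40 °C raised 1 and lowered 10, beside 32.9% and 26.2% of all genes. The melatonin changes of the 16 lay between -1.04 and 0.48. The naming rule had taken out the largest rises and falls, so the 16 are a selected remainder. The remaining 16 of the 59 genes stayed under 5 FPKM in every group, and 13 of those were tested.

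**Figure D4:**
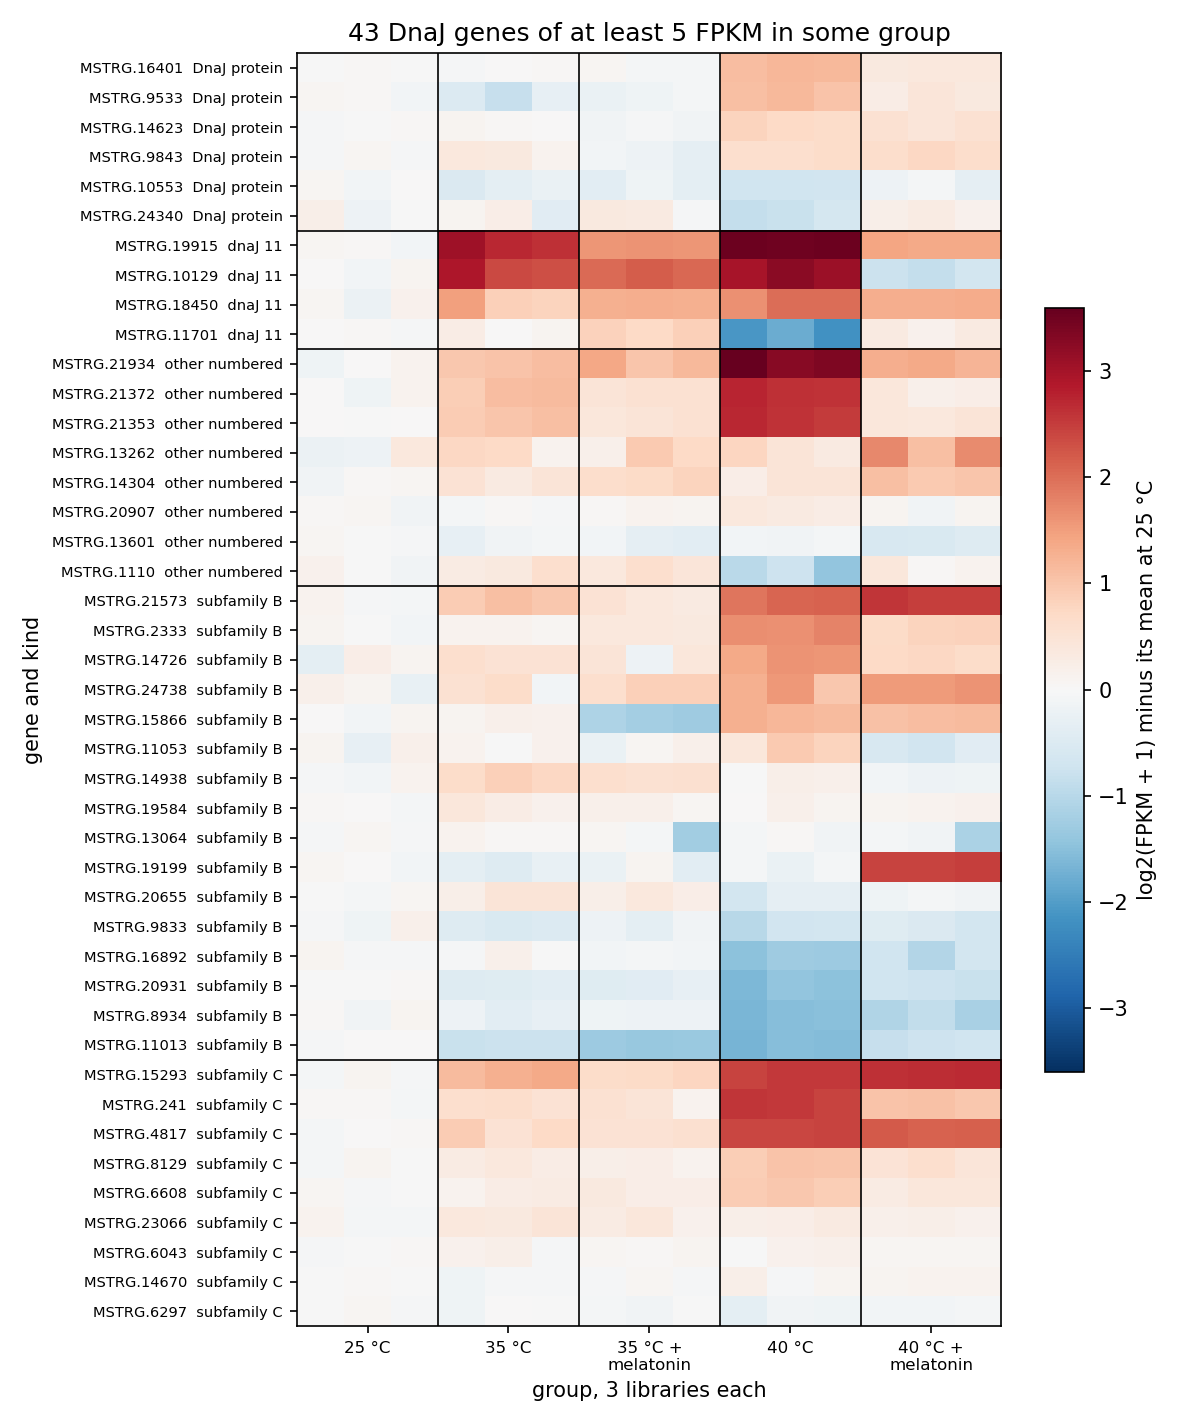
Levels of the 43 DnaJ genes of at least 5 FPKM in some group, as log2(FPKM + 1) minus the gene's mean at 25 °C, in each of the 15 libraries (columns) and ordered by kind. The values run from -2.18 to 3.58. Red is above the 25 °C mean and blue below it, and the strongest reds at 40 °C belong to dnaJ 11, dnaJ 8, dnaJ 20 and subfamily C genes.

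The partners of J-proteins in the HSP70 cycle were taken from lists of words in the descriptions. Their counts are read against 37.3% of all genes called higher and 38.6% lower at 40 °C against 25 °C, and 32.9% and 26.2% for melatonin at 40 °C. Of 30 tested HSP70 genes, 11 rose (36.7%, near the share of all genes) and 16 fell (53.3%) at 40 °C against 25 °C, and melatonin at 40 °C raised 16 (53.3%) and lowered 10 (33.3%). The HSP70 gene MSTRG.21346 was at 3.22 ± 0.42 FPKM at 25 °C, 47.2 ± 2.39 at 35 °C, 516 ± 13 at 40 °C and 627 ± 12.7 at 40 °C with melatonin. Its last 2 means stood apart in FPKM, but the melatonin change of 0.09 ± 0.07 in edgeR did not pass the test (log2, adjusted p 0.278). The plastid stromal HSP70 MSTRG.18891, the kind of HSP70 that plastid J-proteins work with, was at 2.55 ± 0.20, 35.9 ± 0.76, 212 ± 12.7 and 318 ± 5.68 FPKM in the same groups. Melatonin raised it at 40 °C by 0.39 ± 0.05 (log2, adjusted p 7.21e-06), beside falls of 2.41 ± 0.06 and 2.35 ± 0.11 in the dnaJ 8 gene MSTRG.21353 and the dnaJ 20-like gene MSTRG.21934. Other HSP70 genes were lower with melatonin at 40 °C. MSTRG.4107, described as a luminal-binding protein, changed by -1.29 ± 0.09 and MSTRG.19390 by -1.15 ± 0.04 (log2, edgeR, adjusted p 7.18e-09 and 1.82e-12). MSTRG.21470 and MSTRG.5180 were higher there, by 1.05 ± 0.08 and 1.02 ± 0.04 (adjusted p 4.08e-08 and 5.77e-12). The HSP70 genes MSTRG.7480 and MSTRG.22180 fell at 40 °C against 25 °C. They went from 1814 ± 7.57 to 62.0 ± 1.85 FPKM and from 991 ± 14.8 to 85.4 ± 2.99 FPKM.

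Of 15 tested nucleotide exchange factors, 10 rose (66.7%, beside 37.3% of all genes) and 3 fell (20%, beside 38.6%) at 40 °C against 25 °C. Melatonin at 40 °C raised 3 (20%, beside 32.9% of all genes) and lowered 5 (33.3%, beside 26.2%). The GrpE-like gene MSTRG.4528 was at 43.5 ± 1.35 FPKM at 25 °C, 131 ± 0.20 at 40 °C and 62.0 ± 1.36 at 40 °C with melatonin, a melatonin change of -1.27 ± 0.04 (log2, adjusted p 3.21e-12, edgeR). A mitochondrial GrpE-like gene, MSTRG.11619, was at 0.69 ± 0.28, 11.4 ± 0.91 and 0.41 ± 0.08 FPKM in the same groups. The BAG genes MSTRG.16842 and MSTRG.23278 fell at 40 °C, from 20.5 ± 1.11 to 0.53 ± 0.08 FPKM and from 45.8 ± 1.54 to 1.42 ± 0.07 FPKM. Of 10 tested genes for HSP90 and its co-chaperones, 7 rose (70%) and 1 fell (10%) at 40 °C, and melatonin at 40 °C raised 3 (30.0%) and lowered 5 (50.0%), against the same shares of all genes. The largest rise was in MSTRG.20994, an HSP70-HSP90 organizing protein gene, at 12.1 ± 0.63 FPKM at 25 °C, 58.4 ± 2.45 at 40 °C and 36.3 ± 5.83 at 40 °C with melatonin, a melatonin change of -0.88 ± 0.13 (log2, adjusted p 4.41e-05). Another gene of that name, MSTRG.2429, fell from 6.80 ± 1.06 to 1.33 ± 0.18 FPKM at 40 °C. MSTRG.5596, an HSP90 gene, was at 291 ± 2.49 FPKM at 25 °C, 882 ± 12.9 at 40 °C and 1339 ± 14.8 at 40 °C with melatonin. The largest melatonin falls at 40 °C were in the endoplasmin gene MSTRG.23406, from 221 ± 5.81 to 124 ± 1.58 FPKM, and the Cdc37 gene MSTRG.12684, from 106 ± 3.8 to 61.1 ± 2.3 FPKM. Of 5 genes for HSP100 disaggregases, which pull apart aggregates with HSP70 and J-proteins, 3 rose (60.0%) and 1 fell (20%) at 40 °C, and melatonin raised 2 (40.0%) there and lowered none, against those shares of all genes. The HSP100 gene MSTRG.12979 was at 7.18 ± 0.28, 26.6 ± 1.18 and 39.2 ± 0.44 FPKM at 25 °C, at 40 °C and at 40 °C with melatonin.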

How the data were processed

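Leaf polyA RNA was sequenced in 15 libraries, 3 in each of 5 groups. Per the file headers, the deposited table gives a raw count and an FPKM value for each gene and library. The tools listed per the submitters' processing notes are HISAT2 2.0.4, StringTie 1.3.4d and cutadapt 1.9, whose order is not stated. The counts the authors deposited are not normalized. Of values from 1 to 20, 58.8 to 63.0% were even, so both mates of a pair may have been counted. No source used here names the genome build or the counting strand, and coordinates are the table's. Another 6 value columns, which match no labelled sample, were not used. Columns marked CK were taken as libraries without melatonin and those marked MT as libraries with it.

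The counts were tested with edgeR 4.0.16 in R 4.3.3 (TMM scaling, filterByExpr, 5 group means, 10 residual degrees of freedom, 26183 genes, quasi-likelihood test, two-sided). P-values were adjusted by Benjamini-Hochberg over all tested genes, and a gene was called at adjusted p under 0.05. Standard errors are the fold change divided by the square root of F. Alternatives used DESeq2 1.42.0, limma 3.58.1 on log2(FPKM + 1) or log2(FPKM + 0.1), RLE scaling, other filters and thresholds, a replicate block, and each library left out. Levels are the FPKM values deposited by the authors, compared between genes as such. For melatonin at 40 °C the median of all genes was 0.20 in limma on log2(FPKM + 1) and 0.10 in edgeR. FPKM levels and edgeR changes are therefore offset from each other in that comparison. Named genes are, per comparison, up to 6 called members with the largest rise and 6 with the largest fall at a mean of at least 5 FPKM, the 6 smallest adjusted p for the difference of melatonin effects, and the 8 most abundant. Genes of the 4 lists of HSP70 partners come from the 2 largest called rises and falls of each list. Some of the other members are named for their role. The members, lists and rules were chosen with earlier results of these data known. Each gene was put in 1 partner list after the files were read.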

Additional observations from a re-analysis of the deposited data

Results flagged for a closer look

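In edgeR's interaction test the melatonin effect was higher at 40 °C than at 35 °C for 14 members (25.0%) and lower for 17 (30.4%). Of all genes, 27.2% and 21.3% were called in those directions, so the higher count was near the share of all genes. Among members of at least 5 FPKM, the 6 with the smallest adjusted p are given here, each as the effect at 40 °C minus that at 35 °C on the log2 scale. The difference was 1.3 for the merged subfamily B locus MSTRG.11013, which melatonin lowered at 35 °C and raised at 40 °C. It was -1.77 and -1.97 for the dnaJ 8 genes MSTRG.21353 and MSTRG.21372, and -2.43 for the dnaJ 20-like gene MSTRG.21934. It was -3.51 for the dnaJ 11-like gene MSTRG.10129 and -0.85 for the class A gene MSTRG.16401. Each of these tests uses the untreated libraries of both temperatures.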

How the results depend on the processing

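All 74 results for named genes kept their direction in 1702 alternative results, and 10 of these no longer passed the threshold: 6 for melatonin at 35 °C in MSTRG.2333 and 4 for melatonin at 40 °C in MSTRG.13262, and the cause was not tested. No median of the members changed sign. Requiring at least 2-fold gave, as genes higher and lower, 9 and 2 for 35 °C against 25 °C, 23 and 6 for 40 °C against 25 °C, 15 and 4 for 40 °C against 35 °C, 0 and 2 for melatonin at 35 °C, 6 and 11 for melatonin at 40 °C, 16 and 4 for 40 °C with melatonin against 25 °C, and 6 and 10 for the difference of melatonin effects. Of all 26183 genes tested, the counts in the same order began 2283 and 2090, 6397 and 6776, and 4887 and 5715. The others were 1028 and 176, 4247 and 2894, 5111 and 4658, and 3595 and 2739. Adjusted p under 0.01 gave 15 and 7 for 35 °C against 25 °C and 1 and 10 for melatonin at 35 °C. For melatonin at 35 °C, limma on log2(FPKM + 1) gave 6 and 10 with and without a filter, and on log2(FPKM + 0.1) 5 and 10. With the replicate number as a block (replicate block), 1 gene was higher and 16 lower there, and 32 and 11 at 40 °C against 25 °C. The deviations of same-numbered libraries correlated between -0.0561 and 0.0294, so no shared deviation by number was seen. Such values cannot tell whether same-numbered samples were paired, which the labels do not state. The block moved no other count by over 1.5 times.

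With each library left out in turn, the higher and lower counts ranged over 18 to 23 and 8 to 11 for 35 °C against 25 °C, 31 to 34 and 10 to 11 for 40 °C against 25 °C, 27 to 29 and 9 to 10 for 40 °C against 35 °C, 1 to 3 and 11 to 17 for melatonin at 35 °C, 11 to 14 and 24 to 27 for melatonin at 40 °C, 25 to 26 and 11 to 14 for 40 °C with melatonin against 25 °C, and 10 to 13 and 16 to 20 for the difference of melatonin effects. For melatonin at 35 °C, leaving out the second 35 °C library gave 1 higher and 11 lower, and leaving out any of the 3 libraries with melatonin at 35 °C gave 1 higher. The median of all genes for melatonin at 40 °C was 0.10 under TMM, 0.03 under RLE scaling and 0.20 in FPKM. Leaving out members described by a cysteine-rich domain removed none, so it gave no value.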
